A study of Mus musculus with 12 samples.

Results

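Of the 13331 genes that the authors listed for wild-type C2C12 myoblasts, 128 did not stand in their table for Ddx27 knockout cells as used here and had a mean of at least 3 normalised reads in wild-type total RNA or in wild-type polysomal RNA. These 128 are the subject here and are called the genes listed only for wild type. They were picked by these values: the table in which a gene stands, and its mean over the wild-type libraries of each fraction. Before names were considered 133 genes met both conditions, and 5 with names that begin with Col, Zfp or Slc were left out. The tables held 13768 genes in all, with 13027 in that of the knockout. The study sampled C2C12, an established mouse myoblast line, as wild type and with the genotype Ddx27-/-, and from each genotype took total cellular RNA and RNA of purified polysomes. The 12 samples form 4 groups of 3, and values for 11 libraries were analysed: 3 of wild-type total RNA, 3 of wild-type polysomal RNA, 2 of knockout total RNA and 3 of knockout polysomal RNA. All groups share the line, and the labels state no drug, no differentiation step and not whether the knockout was 1 clone. Nothing in the labels ties the samples of a group to cultures of their own, so the p-values below measure the spread between these samples, which may be technical.

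C2C12 cells divide as myoblasts and, once growth factors are withdrawn, leave the cell cycle and fuse into myotubes. Muscle determination factors of the MyoD family switch on structural genes of the sarcomere, fusion genes and further transcription factors by binding short E-box sequences. Ddx27 encodes a nucleolar DEAD-box RNA helicase that takes part in ribosomal RNA processing. Polysomes are mRNAs that carry several ribosomes at once, so the level of a transcript in polysomal RNA against its level in total RNA describes how it is distributed between ribosome-bound and other RNA. Hox genes, which stand in clusters and give cells a memory of their position along the body axis, are known for being kept on or off as a cluster.

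Promoter sequences of RefSeq (GRCm38.p6, the mm10 build), from 250 bases before to 50 bases after the gene's start, matched 94 of the 128 genes. The start is that of the promoter table, which for Prrg4 lies just inside the annotated span of the gene. The sequences of the 4 genes with the highest mean in total RNA, and of Hoxb4, the gene of the HoxB cluster among the 128 that the promoter table held, are shown because the levels and the clustered Hox genes are described below. Each is written 5′ to 3′ on the strand of the gene, and capitals mark CAGCTG (an E-box, the same letters on both strands) and GGGCGG on either strand (a GC box, CCGCCC when it lies on the other strand). Alox5 is at chr6:116461129-116461428 on the minus strand, Prrg4 at chr2:104849801-104850100 on the minus strand, Pdlim3 at chr8:45885237-45885536 on the plus strand, Tspan7 at chrX:10484866-10485165 on the plus strand and Hoxb4 at chr11:96318017-96318316 on the plus strand.
Alox5: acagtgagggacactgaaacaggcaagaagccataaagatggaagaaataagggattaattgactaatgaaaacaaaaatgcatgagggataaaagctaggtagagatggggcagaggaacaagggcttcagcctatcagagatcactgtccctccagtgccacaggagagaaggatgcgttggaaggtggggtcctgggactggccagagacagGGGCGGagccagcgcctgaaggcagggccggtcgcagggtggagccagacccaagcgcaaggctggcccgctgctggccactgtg
Prrg4: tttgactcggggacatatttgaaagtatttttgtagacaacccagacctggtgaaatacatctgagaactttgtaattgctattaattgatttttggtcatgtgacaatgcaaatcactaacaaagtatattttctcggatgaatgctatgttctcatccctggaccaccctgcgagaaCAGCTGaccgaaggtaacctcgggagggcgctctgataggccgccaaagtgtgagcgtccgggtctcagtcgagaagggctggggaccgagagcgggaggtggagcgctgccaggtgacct
Pdlim3: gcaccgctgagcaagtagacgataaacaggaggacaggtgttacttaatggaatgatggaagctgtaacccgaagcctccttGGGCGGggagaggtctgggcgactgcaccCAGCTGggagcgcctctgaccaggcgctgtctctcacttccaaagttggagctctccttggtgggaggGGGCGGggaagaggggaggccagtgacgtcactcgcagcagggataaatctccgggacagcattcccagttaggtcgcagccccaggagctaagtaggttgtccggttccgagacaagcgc
Tspan7: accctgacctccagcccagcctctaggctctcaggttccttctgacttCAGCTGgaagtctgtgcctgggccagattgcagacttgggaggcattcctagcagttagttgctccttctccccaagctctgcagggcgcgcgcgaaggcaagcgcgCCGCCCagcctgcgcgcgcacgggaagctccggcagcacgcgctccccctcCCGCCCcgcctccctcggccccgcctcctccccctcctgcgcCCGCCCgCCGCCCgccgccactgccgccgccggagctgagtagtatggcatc
Hoxb4: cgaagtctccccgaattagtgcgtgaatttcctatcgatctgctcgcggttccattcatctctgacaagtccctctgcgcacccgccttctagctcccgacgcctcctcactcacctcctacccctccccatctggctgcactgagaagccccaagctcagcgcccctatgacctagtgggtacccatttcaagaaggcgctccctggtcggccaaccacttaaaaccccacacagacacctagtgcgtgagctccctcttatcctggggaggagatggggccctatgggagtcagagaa

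An E-box with the letters CAGCTG stood in the Prrg4, Pdlim3 and Tspan7 sequences and in neither the Alox5 nor the Hoxb4 one. Over the 94 matched genes, 24 (25.5%) held CAGCTG, against 14.3% of 8507 genes listed for both genotypes with a wild-type mean of at least 3, 15.6% of 2902 such genes with a highest mean of 3 to 30, and 16.1% of all 27025 promoters of the table. Lrrn1, Ngfr, Sox11 and Syk were among the 24. The median number of CG dinucleotides lay below that of the genes listed for both and above that of the whole table. It was 11 per 300 bases, against 22 in the genes listed for both and 20 in those with a highest mean of 3 to 30. In the whole table it was 7. The share with 10 CG dinucleotides or fewer was 45.7%, against 13.7%, 19.6% and 58.1% in the same 3 sets. GGGCGG on either strand stood in 56.4% of the 94, against 68.2% of the genes listed for both, 63.4% of those at 3 to 30 and 35.9% of the whole table. TATAAA on either strand stood in 10.6%, against 6.48%, 6.58% and 14.2%. None of these motifs contains another, and a match of letters is a description of the sequence and not a bound site.

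The 6 wild-type libraries held 15082167 to 26347515 reads in listed genes, so that 1 read was worth 0.0368 to 0.0806 normalised reads. A level of 3 normalised reads stood for 37.2 to 81.4 reads. Ddx27 itself read 139 to 215 in the wild-type libraries and 31.3 to 52.6 in the 5 knockout libraries, each on its own table's scale. Of the 6 myoblast markers all stood in the wild-type table, summing to 2921 to 4021 in total RNA and 888 to 1042 in polysomal RNA. The Myod1 level was 137, 137 and 177 in wild-type total RNA, and its highest value in any knockout library was 1.13, although the knockout table listed it. Of the 6 markers 5 stood in the knockout table, and they summed to 1032 to 1205 in total RNA and 461 to 539 in polysomal RNA. Pax7, the remaining one, is among the 128. No marker of adipocytes, osteoblasts or endothelium stood in either table. Of the fibroblast list 3 of 5 stood in the wild-type table, summing to 37.7 to 58.5 in total RNA, and Cd248 of that list is among the 128. In these bulk samples fewer cells that make a transcript and less transcript per cell cannot be told apart. Wild-type polysomal replicate 2 stood apart, with 14.4% of its signal in 4 gene models that collect ribosomal RNA sequence, against 5.85% and 0.665% in polysomal replicates 1 and 3 and at most 0.0765% in total RNA.

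Whether a gene stood in the knockout table followed its level in wild type. Of the 604 wild-type genes with a highest group mean below 1, 54.0% were listed only for wild type, and of the 1378 genes at 1 to 3 it was 20.5%. The share was 7.64% of 641 genes at 3 to 5, 3.61% of 970 at 5 to 10, 1.47% of 2585 at 10 to 30 and 0.211% of 4265 at 30 to 100. Above that level 2 of 2888 genes were listed only for wild type, Alox5 and Prrg4. The 128 genes are thus mostly of low level: 46 lay below 5, 48 reached 10 and 11 reached 30. At the edge of the rule Sv2b, Clca4 and Hoxb4 were just inside, at total RNA means of 3.03, 3.05 and 3.11, and Ror1, Cxadr and Plekha6 just outside, at 2.998, 2.99 and 2.98. The other 608 genes listed only for wild type had both means below 3. The same rule turned round gave 23 genes listed only for the knockout, of 437 at any level.

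**Figure D1:**
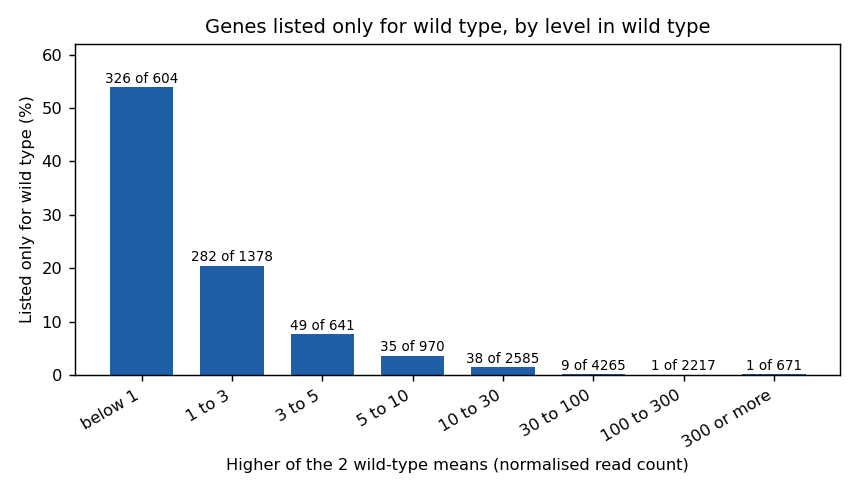
Share of genes of the wild-type table listed only for wild type (bars, percent), by the higher of the gene's 2 wild-type group means in normalised reads, with the number of genes above each bar. The share falls from 54.0% below 1 to under 1% at 30 and above, where 11 of the 128 genes lie.

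In the knockout table the lowest maximum of any gene was 1.01, and in the wild-type table it was 1.004. The sources used here do not say why a gene was listed, and the 128 genes have no knockout value here. A further 79 genes stood in both tables with a wild-type mean of at least 3 and no knockout value of 2 or more. Myod1 is one of them. Of the 78 of these that were tested as described next, polysomal RNA was lower than total RNA for 39 and higher for 6, with a median log2 difference of −0.88.

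All 128 genes passed the filter of at least 1 normalised read in at least 3 of the 6 wild-type libraries. Polysomal RNA was compared with total RNA by limma on log2 of the value plus 1, a scale that understates differences of low genes, with p-values adjusted by Benjamini-Hochberg over all 12380 genes tested. Lower in polysomal RNA were 62 of the 128, where 13.8% of all genes tested were lower, and higher were 2 of the 128, where 8.89% of all genes tested were higher. The median log2 difference was −0.90 over the 128 and −0.02 over all genes tested. Of the genes listed for both genotypes with a wild-type mean of at least 3, 13.8% were lower and 9.53% higher. Among those with a highest mean of 3 to 30, 11.3% were lower and 8.18% higher, and of the 117 of the 128 genes in that range 54 were lower and 2 higher. The rule itself bears on these counts, since a gene that reached 3 in 1 fraction alone leans that way. The 68 genes at 3 or more in both fractions, which reached it in each, had 26 lower, 1 higher and a median of −0.71. Those at 3 or more in total RNA alone (53) had 36 lower and none higher. Those at 3 or more in polysomal RNA alone (7) had 1 higher and none lower. In the authors' deposited table, 69 of the 128 genes were lower and 4 higher at an FDR under 0.05, where 14.3% and 13% of all genes of the table were.

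The values separated for most of the genes. All 3 polysomal libraries lay below all 3 total libraries for 85 of the 128, and above them for 6. Over all genes of the wild-type table this held for 26.8% and 22.6%. The rule bears on these counts too. Of the 68 genes at 3 or more in both fractions, 40 had polysomal values below and 3 above. Those at 3 or more in total RNA alone (53) had 45 below and 0 above, and those in polysomal RNA alone (7) 0 below and 3 above. The number called depended on the count of total RNA libraries. Without total replicate 1, 2 or 3, limma tested 120 of the 128 and called 22, 21 and 17 lower and 1, 0 and 0 higher, while the share of all genes tested called lower was 3.46%, 3.6% and 3.11% and the share called higher 0.938%, 1.19% and 0.683%. Without polysomal replicate 2 it called 87 lower and 4 higher. The share of all genes called was not worked out for that fit, so these counts cannot be set against it. On the whole reads recovered from the values, edgeR called 54 of the 128 lower and 2 higher (12.3% and 9.66% of all genes tested) and DESeq2 74 lower and 4 higher (16.9% and 15.8%). Of the genes described below, Art3, Cnn1, Ednra, Hhip, Hoxb4, Igfbp3, Il2rg, Mef2c, Msc, Nynrin, Pdgfd, Ret, Ripk3, RP23-103I12.13, Syk, Trpv2 and Xirp2 lost their call without at least 1 of the total libraries. Hdc, Bace2, Tmc3, Mctp1, Gm7325, Pla2r1, Nxf7 and Clca4, all called lower with the 6 libraries, did not pass the filter in these fits and have no call there. Art3, Il2rg, Msc and Trpv2 lost it without polysomal replicate 1, and Hoxb4, Il2rg, Nynrin and Pdgfd without polysomal replicate 3. With polysomal replicate 2 left out, Ccdc73, Dkk2, Hoxb13, Nkx2-5, Nog, Prrg4, Rnf144b, Sox11, Sv2b and Vgll2 were called lower as well, and Edn1 and Mgmt higher. Pdgfd was not called in edgeR, Il2rg not with quantile normalization and Syk and Nynrin not with the length trend removed. In edgeR on whole reads the log2 differences of Bace2, Clca4, Nynrin and Sv2b were further below 0 than in limma, at −3.61, −2.35, −1.68 and −1.28.

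**Figure D2:**
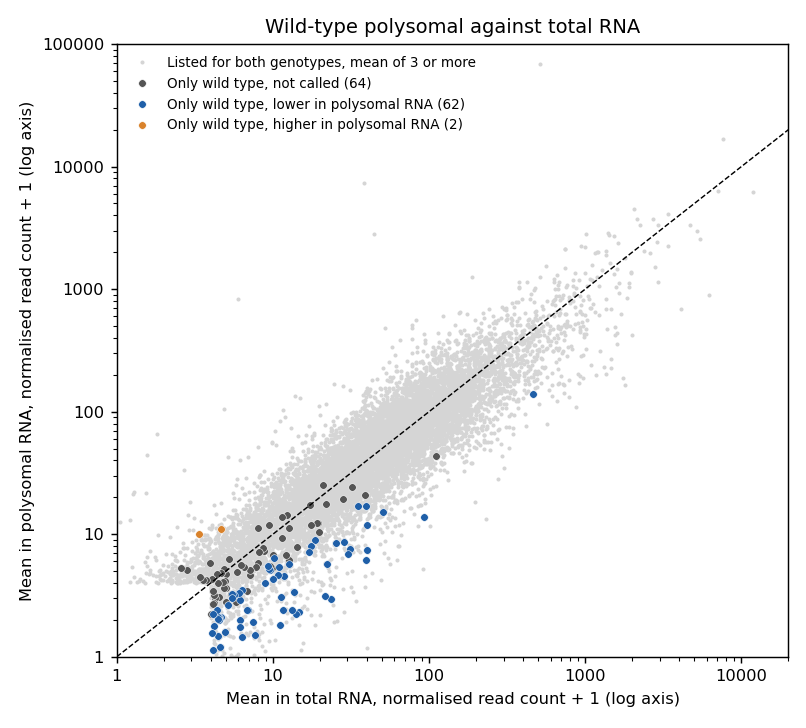
Mean normalised read count plus 1 in wild-type polysomal RNA against total RNA (log axes, 3 libraries per fraction). Grey points are genes listed for both genotypes with a mean of at least 3, larger points are the 128 genes listed only for wild type, coloured by limma's call, and the dashed line marks equal means. Blue points for the 62 genes lower in polysomal RNA lie below the line, and the 2 higher ones, Ret and Cnn1, lie above it.

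The gene with the highest level was Alox5 (ENSMUSG00000025701; chromosome 6, 116410071 to 116461178), which encodes 5-lipoxygenase, the enzyme that starts leukotriene synthesis. It read 421, 409.7 and 552 in total RNA replicates 1 to 3 and 147, 117 and 153 in polysomal replicates 1 to 3. Each polysomal library lay below each total library, and the log2 difference was −1.72 ± 0.20 (SE, adjusted p = 0.00248). Prrg4 (chromosome 2, 104830741 to 104849872), which encodes a transmembrane protein with a vitamin K-dependent Gla domain, followed at 108, 106 and 116 in total RNA and 55.7, 14.02 and 57.4 in polysomal RNA. Its groups did not overlap, but polysomal replicate 2 was far below the other two, and the log2 difference of −1.59 ± 0.50 (SE) missed the threshold (adjusted p = 0.0559), while without that library it was −0.94 and passed. It passed also without polysomal replicate 3, with quantile normalization, with the length trend removed and in DESeq2. Per kilobase of the deposited gene length, mean total RNA levels were 119 for Alox5, 58.7 for Pdlim3, 34.7 for Prrg4, 25.03 for RP23-103I12.13 and 21.05 for Vgll2, against a median of 1.91 over the 128 and 9.97 over the genes listed for both with a mean of at least 3. RP23-103I12.13 had no match in RefSeq, read 31.3, 35.7 and 34.99 in total and 17.3, 11.9 and 18.5 in polysomal RNA, and was lower (−1.07 ± 0.21, adjusted p = 0.0144).

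**Figure D3:**
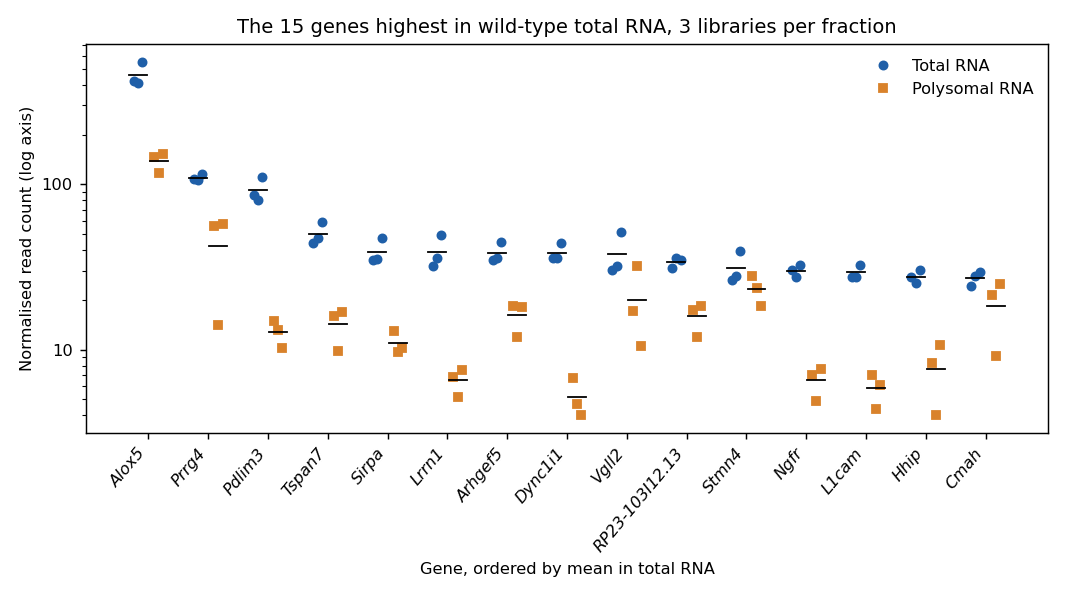
Normalised read count (log axis) of the 15 genes with the highest mean in wild-type total RNA, in each of the 3 total (circles) and 3 polysomal (squares) libraries, with group means as black lines. Polysomal values lie below total values without overlap for all but Vgll2, Stmn4 and Cmah, and the gap is widest for Dync1i1 and Pdlim3.

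The genes were sorted by what their products are known to do, after the values had been seen. Genes named below outside the naming rule were picked then too. The classes include genes that met the rule in 1 fraction alone and so lean that way. Of those described below, Ret, Edn1 and Mgmt met it in polysomal RNA alone. In total RNA alone it was met by Xirp2, Gm7325, Tenm4, Ptprd, Erbb3, Igfbp3, Nog, Ednra, Mef2c, Pax7, Hdc and Bace2. Enpp5, Nxf7, Fndc1, Cd248, Hoxb4 and Hoxb6 also met it in total RNA alone. The 6 genes of muscle structure, fusion and excitability had the lowest median of these classes, −1.90 on the log2 scale, with 5 lower in polysomal RNA and 1 higher. Pdlim3 (chromosome 8, 45885487 to 45919635), an actinin-binding LIM protein of the Z-disc, read 85.7, 80.1 and 111 in total RNA and 14.9, 13.2 and 10.2 in polysomal RNA. Every polysomal value was far below every total value, and the log2 difference was −2.76 ± 0.22 (SE, adjusted p = 0.00104). Xirp2, whose product binds actin at muscle attachment sites, read 16.5, 19.9 and 25.5 in total RNA and 3.69, 0 and 2.64 in polysomal RNA, where a value of 0 allows up to 0.242 (3 reads, counting error only). It was lower (log2 difference −3.05 ± 0.55, SE, adjusted p = 0.0103), with the lowest estimate among the 128 on this scale. The same contrast of Xirp2 gave an adjusted p of 0.0571 in DESeq2 and of 0.0504 and 0.0674 in limma without total replicate 2 or 3.

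Ano5, an anoctamin of muscle membranes in which recessive mutations cause limb-girdle muscular dystrophy, read 21.5, 18.3 and 23.6 in total and 6.39, 2.74 and 5.16 in polysomal RNA (−1.99 ± 0.28, adjusted p = 0.00521). Gm7325, the gene of the fusion micropeptide myomixer, read 2.48, 1.88 and 6.37 in total RNA, where replicate 3 was the high one, and 0.207, 0.242 and 0.128 in polysomal RNA (−1.82 ± 0.35, adjusted p = 0.0131). On whole reads its log2 difference was −4.21 in edgeR. Its 3 total libraries were the furthest apart of all 128 genes, with a range of 1.36 on the log2 scale of value plus 1 against a median range of 0.37. Art3, an ADP-ribosyltransferase found in skeletal muscle, read 9.51, 8.18 and 7.63 in total and 4.15, 4.19 and 4.35 in polysomal RNA and was lower (−0.85 ± 0.19, adjusted p = 0.0189). Cnn1 (chromosome 9, 22099221 to 22109221), which encodes the actin-binding protein calponin of smooth muscle, was the exception. It read 3.49, 3.5004 and 3.89 in total RNA and 7.59, 11.4 and 11.2 in polysomal RNA, a rise of 1.24 ± 0.22 (log2 difference, SE, adjusted p = 0.00937). With any 1 of the total libraries left out that p was 0.057 to 0.0642.

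Genes of neuronal adhesion, axons and synapses made up 11 of the 128, 7 of them lower in polysomal RNA and none higher, with a median of −1.77. Tspan7, a tetraspanin of the cell surface, read 44.1, 47.1 and 59.01 in total and 15.9, 9.83 and 16.9 in polysomal RNA. Lrrn1, a leucine-rich repeat protein of neurons, read 31.96, 35.7 and 49.5 in total and 6.81, 5.16 and 7.54 in polysomal RNA. Dync1i1, an intermediate chain of the dynein motor, read 36.03, 35.6 and 43.98 in total and 6.76, 4.67 and 4.01 in polysomal RNA. The groups of all 3 were far apart, with log2 differences of −1.77 ± 0.25, −2.41 ± 0.24 and −2.70 ± 0.23 (SE) and adjusted p of 0.00494, 0.00173 and 0.00115. L1cam, a cell adhesion molecule of growing axons, read 27.5, 27.6 and 32.6 in total and 7.05, 4.35 and 6.09 in polysomal RNA, and was lower (log2 difference −2.16 ± 0.22, SE, adjusted p = 0.00185). Tenm4 (chromosome 7, 96171244 to 96911093), a teneurin that links neighbouring cells, read 16.96, 19.8 and 30.9 in total and 2.45, 1.77 and 1.62 in polysomal RNA, a log2 difference of −2.96 ± 0.27 (SE, adjusted p = 0.00134). Ptprd, a receptor tyrosine phosphatase of synapses with the longest deposited length of those named here (26085 bases), read 11.2, 11.7 and 9.09 in total and 2.199, 0.322 and 1.66 in polysomal RNA (−2.37 ± 0.34, adjusted p = 0.00536).

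Not all genes of this class were low in polysomal RNA. Stmn4, a stathmin that binds tubulin, read 26.4, 28.04 and 39.4 in total and 27.97, 23.5 and 18.3 in polysomal RNA, and the groups overlapped (−0.41 ± 0.24, adjusted p = 0.24). Sema4f, a semaphorin, read 20.3, 20.3 and 18.8 in total and 23.03, 23.3 and 26.1 in polysomal RNA, where each polysomal value was above each total value, with an estimate that missed the threshold (0.27 ± 0.17, adjusted p = 0.27). Of the neuron markers Tubb3 alone stood in the tables. It was listed for both genotypes, at 238 ± 31.97 (SD, n = 3) in wild-type total RNA and 101 ± 16.02 in polysomal RNA, and at 36.5 to 41.5 in the knockout libraries on their own scale.

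The 14 genes of immune and inflammatory signalling, Alox5 included, had 9 lower in polysomal RNA and none higher, with a median of −0.93. Sirpa, an inhibitory receptor that binds CD47, read 34.8, 35.3 and 47.4 in total and 12.99, 9.67 and 10.2 in polysomal RNA, without overlap (−1.74 ± 0.21, adjusted p = 0.00313). Il2rg, the shared gamma chain of several interleukin receptors, read 12.3, 15.5 and 24.96 in total and 8.71, 7.73 and 7.5 in polysomal RNA (−0.99 ± 0.27, adjusted p = 0.0385). Ripk3, the kinase that starts necroptosis, read 8.72, 9.54 and 14.2 in total and 2.41, 4.99 and 3.32 in polysomal RNA (−1.38 ± 0.29, adjusted p = 0.0160). Syk, a kinase of immune receptors, read 9.35, 10.7 and 9.88 in total and 4.52, 4.83 and 3.84 in polysomal RNA (−1.03 ± 0.19, adjusted p = 0.0107). In none of these 4 did total and polysomal values overlap. Over the class, all polysomal values lay below all total values for 11 of 14 genes, against 26.8% of all genes of the wild-type table. Mgl2, Aim2 and Fgl2 of this class overlapped. Of the leukocyte markers Cd68 alone stood in the wild-type table, at 1.88 to 2.86 in total RNA, and Ptprc, Lyz2 and Itgam did not. The knockout table held 2 of these 4 markers, which summed to 3.79 to 4.94 in knockout total RNA on its own scale.

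Secreted signals, their antagonists and receptors were 14 genes, with 6 lower, 1 higher and a median of −0.82. Among the receptors, Ngfr, the p75 receptor of neurotrophins, read 30.3, 27.3 and 32.3 in total and 7.05, 4.91 and 7.59 in polysomal RNA (−2.06 ± 0.21, adjusted p = 0.00193). Erbb3, a neuregulin receptor, read 12.3, 12.01 and 14.7 in total and 1.78, 0.564 and 1.41 in polysomal RNA (−2.67 ± 0.26, adjusted p = 0.00168). Both had polysomal values far below every total value. Ret (chromosome 6, 118151748 to 118197744), the receptor tyrosine kinase of the GDNF family ligands, went the other way. It read 2.59, 1.92 and 2.53 in total RNA and 8.22, 6.45 and 12.5 in polysomal RNA, a rise of 1.55 ± 0.26 (SE, adjusted p = 0.00844). Ret met the rule in polysomal RNA alone, so its direction was set by the rule. Without total replicate 2 or 3 the adjusted p of Ret was 0.0569 or 0.055, and under the other settings tried it stayed under 0.05.

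Among ligands and antagonists, Hhip, which binds Hedgehog ligands at the cell surface, read 27.4, 25.2 and 30.1 in total and 8.34, 4.03 and 10.6 in polysomal RNA (−1.80 ± 0.32, adjusted p = 0.00955). Igfbp3, a binding protein of insulin-like growth factors, read 4.91, 4.57 and 5.85 in total and 1.41, 0.645 and 0.213 in polysomal RNA (−1.85 ± 0.28, adjusted p = 0.00623). Pdgfd, a platelet-derived growth factor ligand, read 7.397, 6.82 and 9.37 in total and 4.32, 1.29 and 3.45 in polysomal RNA (−1.22 ± 0.34, adjusted p = 0.0391). None of these 3 had overlapping groups. Over the class of secreted signals and receptors, polysomal values lay below total values for 8 of 14 genes and above for 2. Over all genes of the wild-type table this held for 26.8% and 22.6%. Pappa and Nppb were among those that overlapped. Dkk2, a modulator of Wnt signalling, read 10.3, 9.95 and 13.02 in total and 7.39, 3.38 and 6.52 in polysomal RNA, and Nog, an antagonist of bone morphogenetic proteins, 3.698, 3.57 and 3.28 in total and 1.87, 2.497 and 1.79 in polysomal RNA. Neither passed the test, at log2 differences of −0.88 ± 0.29 and −0.57 ± 0.20 (adjusted p = 0.0616 and 0.0713), although the groups did not overlap. Edn1, the gene of endothelin-1, read 1.59, 2.03 and 1.87 in total and 2.66, 4.99 and 4.56 in polysomal RNA (0.81 ± 0.25, adjusted p = 0.0509). Edn1 met the rule in polysomal RNA alone, as Ret did. Ednra, an endothelin receptor, read 5.07, 5.53 and 8.66 in total and 1.74, 0.403 and 0.639 in polysomal RNA, and was lower (−1.97 ± 0.32, adjusted p = 0.00722).

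Transcription factors and their cofactors, 13 genes, leaned least towards total RNA, with a median of −0.56, 3 lower and none higher. The 3 lower ones were Msc, Mef2c and Hoxb4. Msc, a bHLH repressor of myogenesis also known as musculin, read 15.6, 14.5 and 19.9 in total and 6.76, 9.26 and 4.86 in polysomal RNA (−1.17 ± 0.26, adjusted p = 0.0194). Mef2c, a MADS-box factor that acts with the MyoD family, read 3.12, 3.5004 and 3.93 in total and 1.33, 0.564 and 1.49 in polysomal RNA (−1.11 ± 0.24, adjusted p = 0.0185). Vgll2, a cofactor of TEAD factors in skeletal muscle, read 30.2, 31.9 and 51.2 in total and 17.2, 32.1 and 10.4 in polysomal RNA, where replicate 2 was the high one, and was not called (−0.99 ± 0.40, adjusted p = 0.11) except without that library or with the length trend removed. Pax7, the factor that marks satellite cells, read 3.49, 2.91 and 6.74 in total and 3.36, 1.45 and 1.96 in polysomal RNA, and the groups overlapped (−0.70 ± 0.33, adjusted p = 0.16). Sox11, a SOX factor of developing neurons, read 16.5, 17.2 and 15.6 in total and 11.8, 10.4 and 10.4 in polysomal RNA, and Nkx2-5, a homeobox factor of the heart, read 9.03, 8.84 and 13.4 in total and 5.64, 26.02 and 7.12 in polysomal RNA. Neither was called (−0.56 ± 0.18 and 0.01 ± 0.51, adjusted p = 0.0571 and 0.99), and the estimate of Nkx2-5 rested on polysomal replicate 2, without which it was −0.62 and was called lower.

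**Figure D4:**
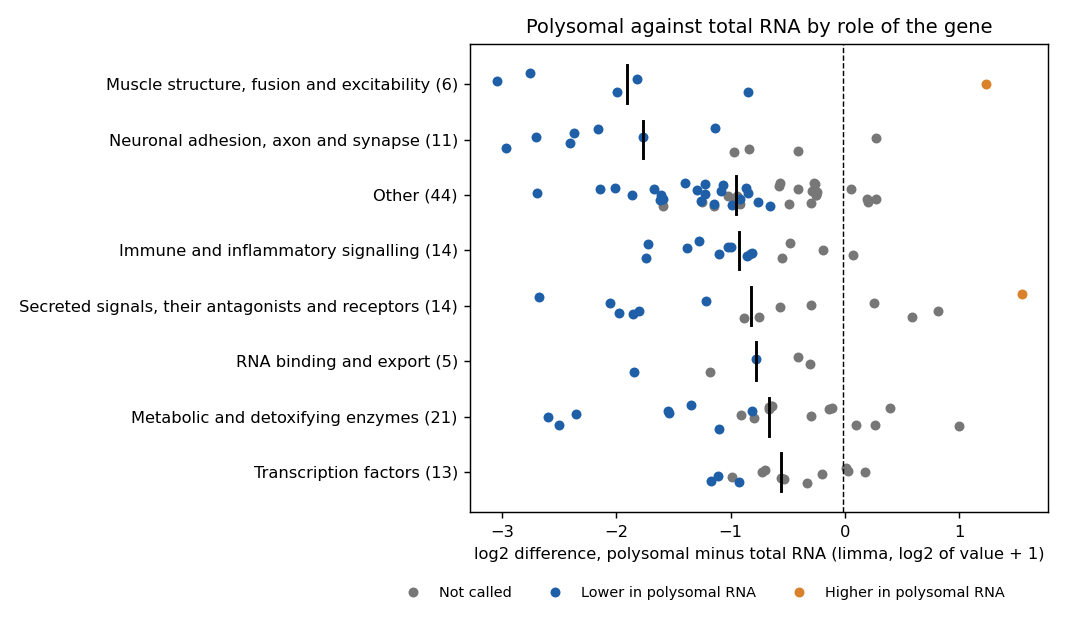
log2 difference of polysomal minus total RNA (limma, log2 of value plus 1) for each of the 128 genes, by role, with the number of genes in brackets. Points are genes coloured by call, black bars are medians of a role and the dashed line is the median of all genes tested (−0.02). The muscle class has the lowest median (−1.90) and transcription factors the highest (−0.56).

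Enzymes of metabolism, protein modification and DNA repair were 21 of the 128, of which 8 were lower and none higher, with a median of −0.67. Hdc, histidine decarboxylase, which makes histamine, read 10.8, 8.29 and 11.3 in total and 0.913, 0.886 and 0.682 in polysomal RNA (−2.60 ± 0.20, adjusted p = 0.00104). Bace2, an aspartyl protease, read 5.71, 6.12 and 8.34 in total and 0.788, 0.242 and 0.511 in polysomal RNA, and Enpp5, a member of the ectonucleotide pyrophosphatase family, 10.7, 11.2 and 15.03 in total and 1.78, 0.645 and 1.75 in polysomal RNA. Both were lower, with log2 differences of −2.35 ± 0.24 and −2.50 ± 0.27 (SE, adjusted p = 0.00178 and 0.00220). Cmah, the hydroxylase that turns the sialic acid Neu5Ac into Neu5Gc, read 24.1, 27.97 and 29.6 in total and 21.3, 9.104 and 24.9 in polysomal RNA, with overlap (−0.64 ± 0.35, adjusted p = 0.21). Mgmt, which repairs alkylated guanine in DNA, had the reverse order, 1.004, 1.51 and 2.201 in total and 3.24, 6.61 and 2.98 in polysomal RNA, without overlap, and missed the threshold (0.998 ± 0.32, adjusted p = 0.0575). Mgmt met the rule in polysomal RNA alone, so its direction was set by the rule.

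RNA binding and export factors were 5 genes, 2 of them lower. Khdrbs3, a splicing regulator of the STAR family, read 18.1, 21.4 and 23.4 in total and 17.6, 15.5 and 16.8 in polysomal RNA, just below without overlap (−0.31 ± 0.18, adjusted p = 0.25). Nxf7 and Nxf3 belong to the family of nuclear RNA export factors. Nxf7 read 2.85, 2.17 and 4.36 in total and 0.166, 0 and 0.213 in polysomal RNA and was lower (−1.84 ± 0.25, adjusted p = 0.00428), with −4.38 in edgeR on whole reads, the lowest edgeR estimate among the 128. Nxf3 read 8.29, 7.701 and 10.7 in total and 5.39, 0.645 and 6.73 in polysomal RNA. It had the widest spread of polysomal replicates among the 128, with a range of 2.23 on the log2 scale of value plus 1 against a median range of 0.68, and was not called (−1.18 ± 0.55, adjusted p = 0.15).

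The 44 genes with other or mixed roles had 22 lower, none higher and a median of −0.96. Fndc1 read 11.1, 12.3 and 17.8 in total and 1.45, 2.09 and 0.469 in polysomal RNA (−2.69 ± 0.32, adjusted p = 0.00302). Cd248, also called endosialin, a surface protein of fibroblasts and pericytes, read 9.77, 11.5 and 16.8 in total and 2.99, 2.34 and 1.75 in polysomal RNA (−2.01 ± 0.26, adjusted p = 0.00375). Dcn and Pdgfra, the other fibroblast markers in the wild-type table, were listed for both genotypes, at 19.02 and 13.7 in wild-type total RNA and 1.17 and 4.32 in polysomal RNA. The part of fibroblast-like cells in these levels was not tested. Trpv2, a cation channel, read 8.72, 8.95 and 8.196 in total and 4.32, 3.14 and 4.99 in polysomal RNA, and was lower (−0.92 ± 0.21, adjusted p = 0.0221). Igsf5, an immunoglobulin-family adhesion protein, read 11.5, 10.7 and 11.8 in total and 12.1, 15.3 and 12.3 in polysomal RNA, all above the total values by little (0.20 ± 0.19, adjusted p = 0.46).

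Gene lists by pathway place the 128 beside the genes listed for both genotypes. Of all genes in the wild-type table, 5.56% were listed only for wild type. That share was 54.0% below a highest mean of 1 and 20.5% at 1 to 3, and the lists below were not matched for level. A mean of 3 was reached by 51 of the 69 sarcomere genes and 26 of the 42 ion channel genes. Of the 79 genes on the Hox and homeobox list 58 reached it. Of 69 sarcomere and contractile genes in the wild-type table, 12 were listed only for wild type, and Pdlim3 and Xirp2 of these reached the level of 3. In that list 48 of 60 tested genes were lower in polysomal RNA and 1 higher, with a median of −1.93, against 13.8% and 8.89% of all genes tested. Myogenic regulators and fusion genes had 9 of 53 listed only for wild type, Pax7, Msc, Mef2c and Gm7325 at 3 or more, and 27 of 50 tested were lower and 3 higher. The muscle calcium, energy and excitation list had 2 of 30 listed only for wild type, with Art3 at 3 or more, and a further 6 genes listed only for the knockout, and 18 of 27 tested were lower and none higher. The neuromuscular synapse list had 1 of 17, Erbb3, and 12 of 17 lower. Genes of the extracellular matrix list in the wild-type table were listed for both genotypes, 53 of 53, with 1 more listed only for the knockout. Of this list 38 of 51 tested were lower and 2 higher. Lower levels in polysomal RNA were frequent also in this list, which held none of the 128. The collagen gene Col17a1, not on the list and left out by name, was listed only for wild type at a total RNA mean of 4.17.

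Signalling lists were mixed. Growth factors and receptor tyrosine kinases had 6 of 66 listed only for wild type, with Ret, Pdgfd, Ngfr and Igfbp3 at 3 or more, and 14 of 63 tested were lower and 10 higher. Wnt and Hedgehog genes had 5 of 35, with Dkk2 and Hhip at 3 or more, and 5 of 35 lower and 1 higher. TGF-beta and BMP genes had 1 of 26, Nog, and 8 of 24 lower and 1 higher. Voltage- and ligand-gated ion channels had 12 of 42, with Trpv2 and Ano5 at 3 or more, and 11 of 32 lower and none higher. A further 5 channel genes were listed only for the knockout, and each of the other pathway lists apart from the muscle calcium list had 0 to 3 such genes. Interferon and antigen presentation had 6 of 33, cytokines and chemokines 3 of 50, matrix proteases 3 of 35 and Notch 1 of 14 listed only for wild type, none of them at 3 or more. Hox, homeobox and developmental transcription factors had 16 of 79, with Nkx2-5, Hoxb9, Hoxb13, Sox11, Hoxb6 and Hoxb4 at 3 or more. This list leaned the other way, with 12 of 69 tested higher in polysomal RNA, 1 lower and a median of 0.27.

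All 7 Hoxb genes of the wild-type table, Hoxb2, Hoxb3, Hoxb4, Hoxb6, Hoxb8, Hoxb9 and Hoxb13, were listed only for wild type, and 4 of them had a mean of at least 3. Of the HoxA genes 9 of 11 were listed for both genotypes, Hoxa2 and Hoxa4 being the others at total RNA means of 0.551 and 0.469. Of the HoxC genes 8 of 8 were listed for both, and no HoxD gene stood in the wild-type table. Hoxb9 (chromosome 11, 96271330 to 96276595) read 14.8, 14.4 and 19.5 in total and 17.6, 17.2 and 14.6 in polysomal RNA, with overlap (0.03 ± 0.20, adjusted p = 0.94). Hoxb13 read 7.98, 6.19 and 8.66 in total and 5.52, 12.1 and 2.64 in polysomal RNA, with polysomal replicate 2 high, and was not called (−0.34 ± 0.44, adjusted p = 0.59), while without that library it was −0.81 and was called lower. Hoxb6 read 3.54, 2.95 and 2.997 in total and 2.905, 0.483 and 1.75 in polysomal RNA (−0.72 ± 0.35, adjusted p = 0.17). Hoxb4 read 3.06, 2.76 and 3.51 in total and 2.03, 0.564 and 1.11 in polysomal RNA, and was called lower (−0.93 ± 0.28, adjusted p = 0.0483). That call was lost with a pseudocount of 0.5, without the filter, with the length trend removed, with a replicate block and in edgeR.

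Hox genes of the other clusters with similar normalised read counts in wild type, not adjusted for gene length, stood in the knockout table. Hoxa9, at 16.8 ± 0.759 (SD, n = 3) in wild-type total RNA beside 16.2 ± 2.81 for Hoxb9, had means of 14.99 in knockout total RNA and 17.1 in knockout polysomal RNA on that table's own scale. Hoxc4, at 6.06 ± 1.202 beside 7.61 ± 1.28 for Hoxb13, had means of 5.12 and 7.65 there. Hoxa7 had 12.6 in wild-type total RNA and 1.68 in knockout total RNA. Hoxc8, at 1.201 in wild-type total RNA, had fewer normalised reads in wild type than Hoxb9, Hoxb13, Hoxb6 and Hoxb4 and still stood in the knockout table, at 1.42 in total RNA.

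**Figure D5:**
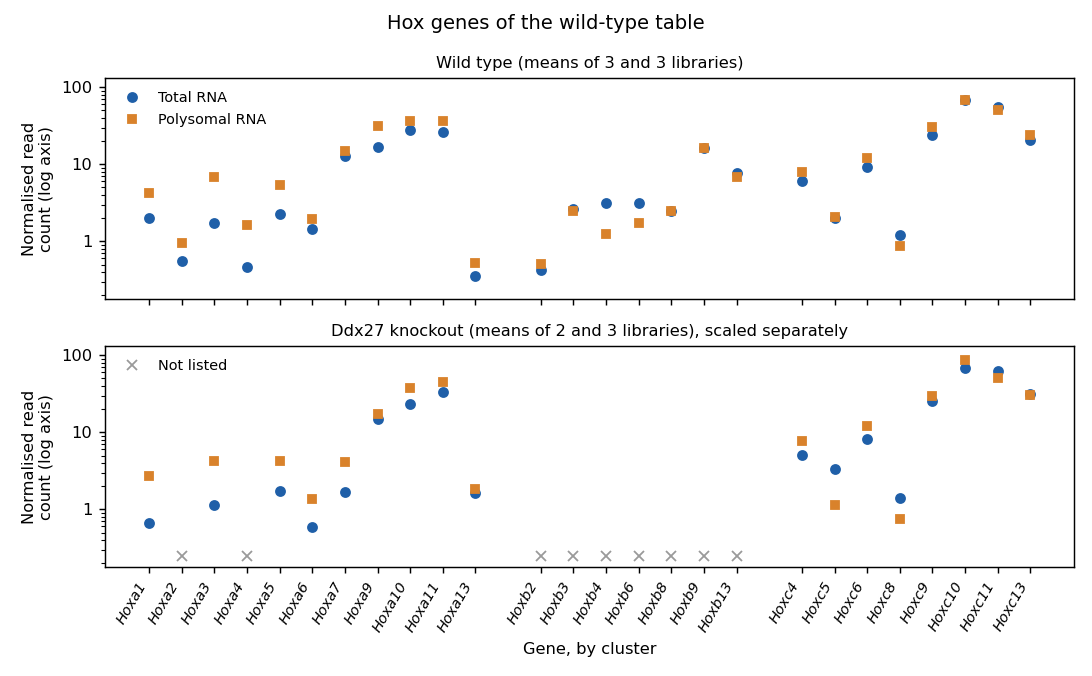
Mean normalised read count (log axis) of each Hox gene of the wild-type table in total (circles) and polysomal RNA (squares), in wild type (upper panel) and in the Ddx27 knockout (lower panel), each on its own table's scale, with crosses for genes not listed in the knockout table. All 7 Hoxb genes have crosses, against 2 of 11 Hoxa genes and 0 of 8 Hoxc genes.

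Along chromosome 11 the HoxB genes formed the longest run of neighbouring listed genes that stood only in the wild-type table. Gm11539, which lies between Hoxb13 and Hoxb9, stood in both tables, at total RNA means of 12.9 in wild type and 15.6 in the knockout. The run held 7 genes from 96271330 to 96392699: Hoxb9, Hoxb8, Hoxb6, Hoxb3, Hoxb4, Hoxb2 and Gm11531. Over the genome 578 such genes stood alone, and there were 47 runs of 2, 4 runs of 3 and this 1 run of 7. In the region from Ngfr to Copz2 12 of 25 genes were listed only for wild type and 13 for both. Of the 12, those outside the run were Ngfr, Hoxb13, 4833417C18Rik, Igf2bp1 and Gm11517, and the last 3 of these had wild-type total RNA means of 0.323, 0.85 and 0.475. Among flanking genes listed for both, named for their position, Ube2z had means of 249 in wild-type and 221 in knockout total RNA, Snf8 56.0 and 106, Snx11 24.3 and 22.1, Cbx1 68.0 and 65.4, and Nfe2l1 295 and 308, each on its table's scale. Ngfr lies on the same chromosome, at 95568818 to 95587698, with Igf2bp1, 4833417C18Rik and genes listed for both between it and the cluster.

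Other genes of the 128 were neighbours as well. Prrg4 and Ccdc73 adjoin on chromosome 2 and were both listed only for wild type, at total RNA means of 109.7 and 13.3, while Eif3m, whose annotated end overlaps that of Ccdc73, was listed for both, at 36.6 in wild type and 60.2 in the knockout. On chromosome 14, Ripk3, Nfatc4 and Nynrin followed each other from 55784995 to 55874736, of which Ripk3 and Nynrin are among the 128. Sdr39u1, at a total RNA mean of 10.4, lies just beyond, overlapping Khnyn, which was listed for both. On chromosome 16 the run of Igsf5, Dscam and Bace2 held 2 of the 128. On chromosome 4 8030451A03Rik and Pappa followed each other in the order of listed genes. They lay far apart in bases, with 8030451A03Rik ending at 64148556 and Pappa starting at 65124174. By chromosome, the 128 made up 1.97% of the wild-type genes of X (10 of 508), 1.94% of those of chromosome 6 (12 of 620), 1.82% of those of chromosome 13 (9 of 494) and 1.26% of those of chromosome 11 (14 of 1113), against 0.968% over all positioned genes. RefSeq placed 127 of the 128, 123 of them protein coding, 3 long non-coding and 1 a transcribed pseudogene. Whether the authors' counting used strand is not given in the sources used here. Reads in the stretch that overlapping genes share, such as Ccdc73 and Eif3m or Sdr39u1 and Khnyn, therefore cannot be told apart. The same holds for Hoxb4, whose annotated span lies within that of Hoxb3.

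Within total RNA, replicate 3 was the highest library for 97 of the 128 genes (75.8%), against 39.9% of the genes listed for both with a mean of at least 3. It was also the highest for 53 of the 79 genes of low knockout value (67.1%). The 128 together took 0.186%, 0.185% and 0.225% of the signal of total replicates 1 to 3, and 0.0900%, 0.0626% and 0.0928% of that of polysomal replicates 1 to 3. Total replicate 3 was also the highest for all 6 differentiated muscle markers in the table, 5 of 6 myoblast markers and 3 of 3 fibroblast markers. The sum of the differentiated muscle markers ran from 243 to 678 over the total libraries and from 15.9 to 24.9 over the polysomal ones. Acta1, skeletal muscle actin, read 133, 135 and 419 in total RNA. The part of these markers in the levels of the 128 genes was not tested. Without total replicate 3 the rule gave 116 genes instead of 128.

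Among polysomal libraries, replicate 2 was the lowest for 60 of the 128 genes (46.9%), beside 49.5% of the genes listed for both, and 5 of the 128 were listed at 0 in it. Gene length moved with this library. The 19 genes of 8000 bases or more had median log2 differences from mean total RNA of −1.02, −1.62 and −1.05 in polysomal replicates 1 to 3, and the 26 genes shorter than 2000 bases had −0.48, −0.15 and −0.69. Over all genes the trend was −0.23, −0.53 and −0.14 per doubling of length. With that trend removed, 62 of the 128 were again lower and 2 higher, and 51 of the 62 lower ones were the same genes. The share of all genes called with the trend removed was not worked out.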

How the data were processed

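RNA sequencing of total and polysomal RNA gave 11 libraries with values. Per the submitters' processing notes, the authors' tools were edgeR, HTSeq and STAR and the build was mm10, with no versions or roles stated. The deposited library columns hold a signal for each gene: read counts that the authors scaled within each genotype's table. All values were whole reads times 1 factor per library (100% within 0.001 reads). Per the file headers, further columns hold the authors' log2 fold change, FDR (an adjusted p-value) and gene length. Values of the 2 tables were never tested against each other. Knockout columns match the sample titles by group and not by number.

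Members were found by table and level, leaving out names that start with Hist, Col, Itg, Myh, Tnn, Zfp or Slc. The members, lists and roles were chosen with earlier results of these data known. The unit had been assumed to be CPM, and the log-scale test was kept. limma 3.58.1 (R 4.3.3, mean-variance trend) was fitted to log2(value + 1) of all genes with at least 1 in at least 3 of 6 wild-type libraries. The p-values were adjusted by Benjamini-Hochberg over all of them with a limit of 0.05. The fit was also run on simulated counts with the same dispersion for every gene. Those counts held no library that stood apart as polysomal replicate 2 did, so they cannot show how it bears on the calls. Alternatives were a pseudocount of 0.5, no filter, median-of-ratios and quantile scaling, removal of the length trend, a replicate block, edgeR 4.0.16 and DESeq2 1.42.0 on the recovered reads, and leaving out each library. Genes were named by rule: the 15 highest in each fraction, the 12 largest called rises and falls, members of the lists, neighbours, the edge of the threshold and the widest replicate gaps. Further genes were named after their values were seen. Positions and promoters are RefSeq's (GRCm38.p6).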

Additional observations from a re-analysis of the deposited data

How the results depend on the processing

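The number of genes lower in polysomal RNA was 62, and 49 to 74 over the pseudocount, filter, scaling, length, block and count-model settings (54 in edgeR, where 12.3% of all genes tested were lower, and 74 in DESeq2, where 16.9% were). Leaving out 1 library gave 17 to 87 lower and 0 to 4 higher. The share of all genes called was worked out only for the main fit, edgeR, DESeq2 and the fits without a total library. The number higher was 4 with quantile normalization and 4 in DESeq2, in place of 2. The fit with a replicate block gave 49 lower and 2 higher and kept 48 of the 62. Of the named genes Art3, Hoxb4, Il2rg, Msc and Trpv2 were not called in it and Prrg4 was. Deviations of same-numbered libraries correlated at 0.21, −0.22 and −0.07 over genes, and those of differently numbered ones at −0.31 to 0.26. With 3 libraries per fraction, deviations from a group mean depend on each other. These values therefore cannot decide whether the numbers pair the libraries. The number of genes that meet the rule was 133 with each library rescaled to the same total, 128 with median-of-ratios scaling and 116 to 133 with 1 library left out.

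Estimates near 0 changed sign for 4 of the named genes, none of them called in the fit to all libraries. Leaving out 1 library gave −0.81 to 0.11 for Hoxb13, −0.05 to 0.16 for Hoxb9, −0.62 to 0.40 for Nkx2-5 and −0.051 to 0.17 for 8030451A03Rik. Hoxb9 was −0.043 with the length trend removed, and Nkx2-5 was −0.33 with it removed and −0.0003 with a pseudocount of 0.5. The cause was not tested. A level of 3 stands for 37.2 to 81.4 reads in the 6 wild-type libraries, which limits what can be said of the 46 genes below 5.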

Other observations

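The 5 genes that met the level and table conditions but were left out by name were Slc43a3, Slc14a1, Zfp422, Col17a1 and Zfp521. Their mean levels in wild-type total RNA were 14.5, 8.18, 4.21, 4.17 and 3.32, and in polysomal RNA 9.38, 1.44, 2.46, 2.83 and 2.12. Slc14a1, a urea transporter, was lower in polysomal RNA by limma (log2 difference −2.07 ± 0.43, SE, adjusted p = 0.0158), and the other 4 were not called.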
